A study of Mus musculus with 6 samples.

Results

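In the irradiated mouse prostate, 183 genes had lower RNA levels with each added copy of the Trp53 R270H mutation and are not among the best known targets of p53. These graded falling genes were chosen by their measured levels in all 6 mice. A gene was included when its mean FPKM (fragments mapped to a gene, relative to its exon length and to all fragments mapped) over the 6 mice was at least 1. Its lowest wildtype value also had to lie above its highest heterozygous value, and its lowest heterozygous value above its highest homozygous value. The homozygous mean had to be at most 0.6 of the wildtype mean. Of the 13818 genes with that mean, among 47719 gene identifiers in the files, 208 met these values (1.51%). A group of 31 familiar p53 targets, such as Cdkn1a, Mdm2 and Bax, was left out by name, which removed 25 of the 208 and left 183 (1.32%). Since the levels chose the genes, the drop with each allele, called the fall below, is given as a description and without a test.

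RNA came from whole prostates of mice of the B6.129S4-Trp53tm3.1Tyj/J strain, in which the R270H substitution sits at the Trp53 locus itself. Wildtype mice 39 and 41 were Trp53+/+, heterozygous mice 37 and 40 were Trp53R270H/+, and homozygous mice 47 and 49 were Trp53R270H/R270H. Every mouse was about 3 months old and was given 5 Gy to the whole body, and prostates were taken 6 h later, so the wildtype mice are irradiated controls and no unirradiated gland was compared. The glands were not sorted, so each value is that of all cells in the dissected tissue. FPKM does not tell the alleles apart, so genotypes are those of the labels.

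p53 is a transcription factor that accumulates after radiation damages DNA. It binds a response element built from a pair of similar decamers and switches on genes of cell cycle arrest, cell death, DNA repair and its own feedback loop. The R270H substitution lies in the domain that contacts DNA. Much of the prostate is luminal epithelium, which makes large amounts of secreted protein and relies on the chaperones of the endoplasmic reticulum to fold it.

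The FPKM values of a mouse summed to between 518671 and 636407, and the number of fragments, read from the spacing of the lowest values, ran from 0.787 (mouse 47) to 1.08 (mouse 49) relative to mouse 39. The true number of fragments is unknown, so no counting error is given. Homozygous mouse 47 stood apart from the other mice. Its correlation with them across genes (Pearson's r of log2 values) was between 0.879 and 0.919, against 0.929 to 0.960 among the other 5. Of 20 luminal markers, 19 were measured at a mean FPKM of at least 1, and their sum was 87079 and 63267 in the wildtype, 70292 and 50050 in the heterozygous and 46717 and 41904 in the homozygous mice. Of these luminal markers, Sbp was listed at 0 in mice 39, 40, 47 and 49. The 9 measured seminal vesicle markers summed to 3499 and 49752, 57302 and 55832, and 75342 and 35226 in the same order, with Svs2 listed at 0 in both homozygous mice and Svs4 and Svs5 at 0 in mouse 47. Of other tissues, the 19 measured skeletal muscle markers summed to 2447 and 3509 in the wildtype, 6666 and 7015 in the heterozygous and 8333 and 7144 in the homozygous mice, so every mouse with a mutant allele lay above both wildtype mice. The same was true of the 15 endothelial markers, with 107 and 137, 172 and 173, and 151 and 166. The 14 measured adipocyte markers, with 561 and 413, 507 and 625, and 841 and 756, were highest in the homozygous mice. Mouse 47 also stood apart on some other lists. The 29 interferon-stimulated genes summed to 8569 FPKM in mouse 47 and to between 2888 and 3624 in the other 5 mice. The 14 macrophage markers summed to 118 in mouse 47 and to between 186 and 289 in the others. Over the 9 seminal vesicle markers, the median log2 difference of mouse 47 from mouse 49 was 7.19. The part of these tissues and genes in the falls below was not tested.

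Across the 183 genes, the median change on the log2(FPKM + 0.1) scale relative to wildtype was -0.47 with 1 mutant allele and -1.08 with 2, against -0.01 and -0.04 over all 13818 tested genes. The median homozygous mean was 47.7% of the wildtype mean, and the median heterozygous mean was 71.5%. In 105 genes the homozygous mean was at most 50% of the wildtype mean, and in 20 it was at most 25%. The left-out targets had lower medians, of -1.03 and -1.91 over the 25 that met the same values. The 183 covered a wide range of levels, from a wildtype mean of 1.49 to 11352 FPKM with a median of 15.1, and 28 of them had a wildtype mean of at least 100.

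**Figure D1:**
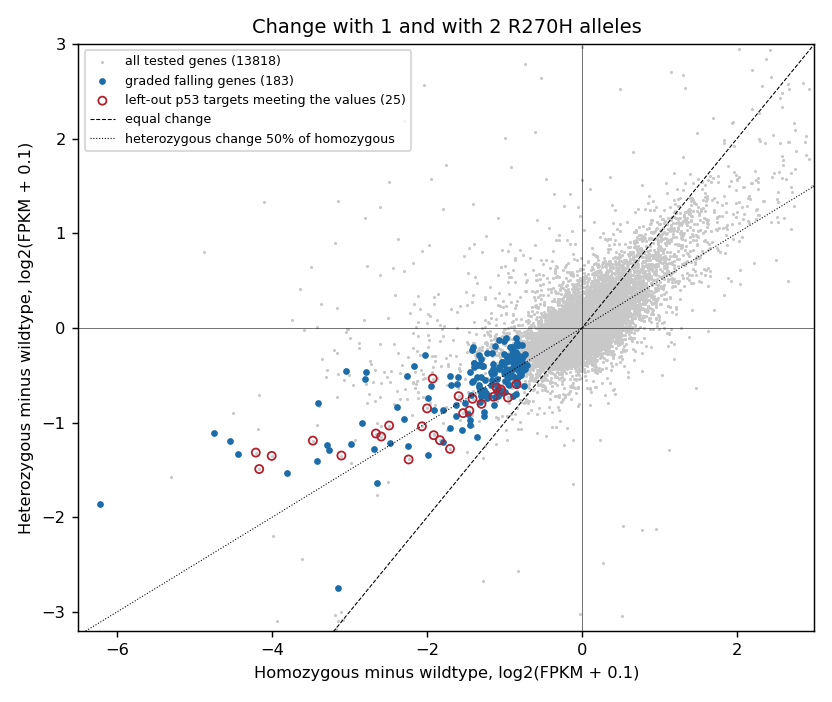
Change in log2(FPKM + 0.1) from wildtype to homozygous mice (x axis) and from wildtype to heterozygous mice (y axis) for all 13818 tested genes (grey), the 183 graded falling genes (blue) and the 25 left-out p53 targets with the same values (red circles). Each point is 1 gene (102 tested genes lie outside the axes), and the blue points sit at a median of -1.08 on the x axis and -0.47 on the y axis, less far down than the red circles at -1.91 and -1.03.

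A list of 102 measured p53 targets other than the 31 left out held 23 of the 183 genes (22.5%), where 1.32% of all tested genes were graded falling genes. This list and the others below were drawn up with earlier results of these data known, so such shares are descriptions only. In these 23 the median log2 change was -0.56 in heterozygous and -1.12 in homozygous mice. The other 79 genes of the list had medians of -0.05 and -0.13, and both homozygous mice lay below both wildtype mice in 32 of them, a pattern that 28.7% of all tested genes showed. Between homozygous and wildtype mice in limma, 5 genes of the list were called lower and 0 higher at an adjusted p under 0.05 (0.261% and 0.123% of all tested genes). All 5 are among the 183, whose choice used the same values.

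Enzymes and transporters were among the lowest genes of this group in homozygous mice. Ephx1, which encodes microsomal epoxide hydrolase, lies on chromosome 1 from 180976210 to 181020904 (GRCm38, minus strand). Its FPKM was 239 and 194 in the wildtype, 121 and 120 in the heterozygous and 42.9 and 39.5 in the homozygous mice. The heterozygous mice lay near the middle of the range, and the homozygous mean was 19% of the wildtype mean. 9030617O03Rik, annotated as Dglucy, the D-glutamate cyclase of mitochondria, had 48.9 and 41.6, 24.1 and 22.1, and 8.28 and 10.01 FPKM in the same order. Cpt1c, a member of the carnitine palmitoyltransferase family found mainly in brain, had 9.68 and 10.004, 5.60 and 5.07, and 2.48 and 3.07. The homozygous mice of these 3 genes lay together, and the highest of them was Cpt1c in mouse 49, at 31.2% of the wildtype mean. Slc19a2, a thiamine transporter, had 16.3 and 10.6, 8.001 and 9.84, and 4.91 and 4.93, with the wildtype mice the least alike. Cox6b2, a subunit of cytochrome c oxidase, had a homozygous mean at 45.1% of wildtype.

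Among secreted factors and signalling genes, Lif stood lowest. Lif encodes leukemia inhibitory factor, a cytokine of the interleukin-6 family, and lies on chromosome 11 from 4257557 to 4272514 (plus strand). Its FPKM was 2.77 and 2.73 in the wildtype, 0.792 and 0.842 in the heterozygous and 0.410 and 0.309 in the homozygous mice. The fall with 1 mutant allele was already 3.36-fold, and that with both was 7.65-fold. Fam212b, annotated as Inka2, an inhibitor of a p21-activated kinase, had 11.5 and 8.52, 3.82 and 3.86, and 2.98 and 1.98 FPKM. Notch1, a receptor of cell-cell signalling, had 15.7 and 17.99, 9.15 and 11.1, and 6.78 and 8.63. Both thus lost more between wildtype and heterozygous than between heterozygous and homozygous mice on the log2 scale, with 67.7% and 65.0% of the fall present with 1 mutant allele. The small GTPase Rap2b, the exchange factor Def6 and the iRhom protein Rhbdf2, which governs the release of growth factors and cytokines from the cell surface, had homozygous means at 56.4%, 41.5% and 48.6% of wildtype.

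Genes with roles in growth control, chromatin and RNA made up another part of the 23. Pvt1 is a long noncoding RNA gene beside Myc on chromosome 15, from 62037986 to 62378096 (plus strand). Its FPKM was 9.44 and 9.39 in the wildtype, 5.42 and 5.37 in the heterozygous and 3.05 and 3.44 in the homozygous mice, so the mice of a genotype differed little beside the gaps between genotypes. Rps27l, which encodes a variant of a small ribosomal subunit protein, was the most abundant of the 23, with 406 and 400, 316 and 267, and 226 and 188 FPKM. Tob1, an antiproliferative protein, had 77.5 and 93.9, 55.3 and 61.2, and 37.1 and 38.8. The falls of Rps27l and Tob1 were near 2-fold, at 1.95-fold and 2.26-fold. Rnf169, which binds modified chromatin at DNA breaks, and Sac3d1, a protein of the centrosome, had homozygous means at 57.4% and 52.2% of wildtype.

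The remaining genes of the list act in membranes, vesicles and lysosomes. Exoc4, a subunit of the exocyst that tethers secretory vesicles to the plasma membrane, had 40.8 and 36.2 FPKM in the wildtype, 18.8 and 22.9 in the heterozygous and 15.7 and 16.2 in the homozygous mice, so 70.0% of its fall was present with 1 mutant allele. Fuca1, a lysosomal fucosidase, had 173 and 174, 145 and 126, and 80.1 and 119, and mouse 49 lay close under the lower heterozygous mouse. Sytl1, a vesicle protein, Bloc1s2, a subunit of a complex that forms lysosome-related organelles, and Susd6, a membrane protein, had homozygous means at 46.7%, 48.1% and 55.7% of wildtype. Sulf2, which trims sulfate from heparan sulfate outside the cell, was at 54.9%. St14, the membrane protease matriptase, was at 59.5%, the 3 genes closest under the limit being St14, Foxa1 (59.7%) and Prss16 (59.7%). Foxa1 is a factor that opens chromatin for the androgen receptor in prostate epithelium. Baiap2 (60.3%), Zbtb42 (60.4%) and Scrn3 (60.5%) met every other condition and lay just outside.

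**Figure D2:**
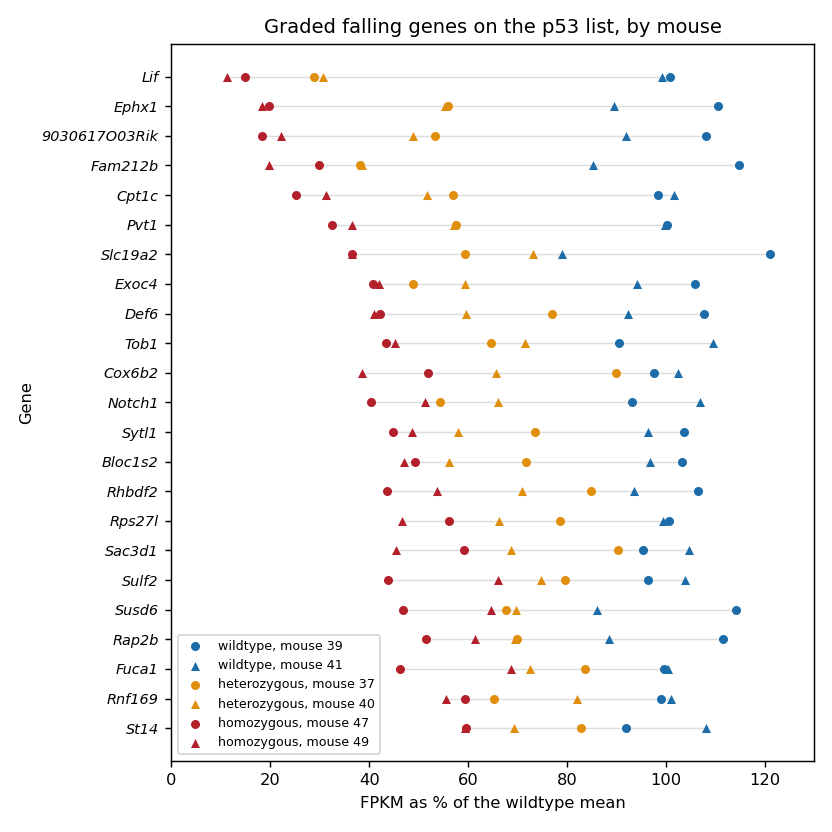
FPKM of the 23 graded falling genes on the list of other p53 targets in each of the 6 mice, as a percentage of the wildtype mean of the gene (x axis), with 1 row per gene ordered by the homozygous mean. In every row the wildtype mice (blue) lie right of the heterozygous mice (orange) and these right of the homozygous mice (red), as the choice of genes required, from Lif at 13.1% in homozygous mice to St14 at 59.5%.

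Promoters were read to see which of these genes carry a p53 element near a RefSeq start. RefSeq promoter windows of GRCm38.p6, from 250 bases before to 50 after a RefSeq start of the gene, were matched for 137 of the 183 genes. Both strands were searched for a pair of p53 decamers with at most 3 bases between them and at most 2 mismatches over both. The C and the G in the core of each decamer had to match. Such an element was found for 5 of the 137 genes (3.65%, exact 95% interval 1.20 to 8.31), for 6 of 22 left-out targets (27.3%) and for 183 of 10456 tested genes (1.75%). Among all 32851 windows of the table, 1.35% held it. The elements of the 5 genes are shown with 30 bases on each side, or up to the end of the window, beside that of Cdkn1a, the classical p53 target, with the element in capitals and each stretch written 5′ to 3′ on the strand of the gene.
Cdkn1a (chr17:29090898-29090977, plus strand): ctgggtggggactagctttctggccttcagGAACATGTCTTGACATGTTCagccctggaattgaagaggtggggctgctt
Rps27l (chr9:66946266-66946345, plus strand): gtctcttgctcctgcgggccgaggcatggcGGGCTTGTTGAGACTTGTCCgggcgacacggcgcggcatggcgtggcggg
Pgpep1 (chr8:70659719-70659799, minus strand): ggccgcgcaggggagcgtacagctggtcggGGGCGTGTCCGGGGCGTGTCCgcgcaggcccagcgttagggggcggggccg
Fhl2 (chr1:43196762-43196844, minus strand): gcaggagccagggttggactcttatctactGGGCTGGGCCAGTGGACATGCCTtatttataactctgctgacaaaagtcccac
Ahnak2 (chr12:112795693-112795751, minus strand): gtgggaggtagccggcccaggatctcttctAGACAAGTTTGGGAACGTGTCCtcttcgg
1700007K13Rik (chr2:28466275-28466335, minus strand): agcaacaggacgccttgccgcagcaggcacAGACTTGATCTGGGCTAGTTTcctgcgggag

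Distances here count from the RefSeq start of the window. The element of Rps27l began 117 bases before that start, with no spacer and 1 mismatch. That of Cdkn1a began 51 bases before its RefSeq start, also with no spacer and 1 mismatch. Those of Pgpep1 (31 bases before, spacer of 1) and Fhl2 (53 bases before, spacer of 3) held 2 mismatches each, and those of 1700007K13Rik (19 bases after, spacer of 1) and Ahnak2 (21 bases after, spacer of 2) held 1 mismatch each. In GENCODE M21 the elements of all 5 lie inside the gene, whose first base lies further upstream. Rps27l begins at 66946086 and its element at 66946296. On the minus strand, Pgpep1 begins at 70660388, Fhl2 at 43196984 and Ahnak2 at 112802657, with elements reaching up to 70659769, 43196814 and 112795721. Only Rps27l of these 5 was on the list of p53 targets. A match of letters is a description and shows no binding, and p53 elements further from the start lie outside these windows.

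The genes with an element behaved differently from each other with 1 mutant allele. 1700007K13Rik, a protein-coding gene known by its clone name, had 7.14 and 6.39 FPKM in the wildtype, 0.876 and 0.974 in the heterozygous and 0.799 and 0.570 in the homozygous mice. Its fall was thus nearly complete in heterozygous mice, with a share of 87.3%, the highest of the 183. Ahnak2, a large scaffold protein, had 7.29 and 7.88, 7.04 and 6.33, and 3.88 and 4.98 FPKM, so its heterozygous mice stayed at 88.2% of wildtype. Pgpep1, a peptidase, had 12.9 and 10.8, 8.66 and 9.25, and 4.45 and 4.59. Fhl2, a LIM domain cofactor of transcription, had 25.1 and 15.2, 14.3 and 13.1, and 9.40 and 11.8, and its wildtype mice were further apart than any of the genotype gaps around them.

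Genes of the endoplasmic reticulum formed the next group. Of 28 measured genes of the unfolded protein response and the secretory pathway, 4 were graded falling genes (14.3%, against 1.32% of all tested genes), namely Pdia3, Pdia6, Calr and Dnajc3. Pdia3 and Pdia6 form disulfide bonds in secreted proteins, Calr binds calcium and folds glycoproteins, and Dnajc3 is a cochaperone of the lumen. The FPKM of Calr was 743 and 808 in the wildtype, 677 and 663 in the heterozygous and 359 and 475 in the homozygous mice. Pdia6 had 637 and 675, 546 and 468, and 176 and 355, and Pdia3 had 453 and 438, 370 and 367, and 216 and 285. Dnajc3 had 145 and 161, 133 and 137, and 66.1 and 112. Of the log2 fall, between 21.5% (Dnajc3) and 32.3% (Pdia3) was present with 1 mutant allele. In all 4 genes mouse 47 was the lowest of the 6, and mouse 49 lay between it and the heterozygous mice.

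The other 24 genes of that list are those the rule did not choose. Genes with an ordered middle step and a large enough fall had been taken out, so what follows is a description only. Their median log2 change was -0.07 in heterozygous and -0.54 in homozygous mice, and both homozygous mice lay below both wildtype mice in 17 of the 24 (28.7% of all tested genes did so). Hspa5, the main chaperone of the lumen, had 839 and 897, 899 and 746, and 348 and 418 FPKM, so the heterozygous and wildtype mice overlapped. Creld2 had 196 and 288, 299 and 239, and 64.0 and 93.4. Between homozygous and wildtype mice in limma, 0 of the 28 genes were called in either direction at an adjusted p under 0.05. Over all tested genes 0.261% were called lower and 0.123% higher, so nothing is read from that 0.

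The promoters of 3 of the 4 genes held the endoplasmic reticulum stress element, which is CCAAT, 9 bases of any kind and CCACG. It begins with a CCAAT box and was searched on both strands after the genes had been seen. It was found for 4 of the 137 matched genes (2.92%, exact 95% interval 0.801 to 7.31), against 19 of 10456 tested genes (0.182%), 0 of 22 left-out targets and 0.119% of all windows. The stretches of the 3 chaperone genes are shown with the element in capitals, 5′ to 3′ on the strand of the gene, where that of Calr lies on the opposite strand and so reads in reverse complement.
Calr (chr8:84847045-84847123, minus strand): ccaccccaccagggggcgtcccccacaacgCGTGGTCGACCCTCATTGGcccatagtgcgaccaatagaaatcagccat
Pdia6 (chr12:17266461-17266539, plus strand): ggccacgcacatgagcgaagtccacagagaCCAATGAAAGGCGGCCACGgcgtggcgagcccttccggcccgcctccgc
Dnajc3 (chr14:118937797-118937875, plus strand): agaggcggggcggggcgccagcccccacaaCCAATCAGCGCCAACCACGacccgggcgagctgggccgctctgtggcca

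These elements began 162 (Calr), 98 (Pdia6) and 105 (Dnajc3) bases before the start. The fourth gene, Xlr3a, belongs to a family of near-identical copies on the X chromosome, so its reads could have been split among them. Its FPKM was 5.34 and 5.84 in the wildtype, 4.12 and 0.984 in the heterozygous and 0.354 and 0.524 in the homozygous mice, the heterozygous mice being far apart.

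The rule did not require the homozygous mice to be alike, and in many of the 183 genes they were not. It did use the values of both mice. Of all tested genes, 9.09% were at most 60% of the wildtype mean in mouse 47 and 4.41% in mouse 49. The choice could thus favor genes low in mouse 47, and the shares below are descriptions only. Mouse 47 was below mouse 49 in 146 genes (79.8%), against 49.9% of all tested genes and 10 of the 25 left-out targets. The median difference of mouse 47 from mouse 49 was -0.34 on the log2 scale over the 183 genes and 0.04 over the left-out targets. Mice 47 and 49 were within 1.5-fold of each other in 107 genes (58.5%), against 83.2% of all tested genes and 23 of 25 left-out targets. In 37 genes (20.2%) the value in mouse 47 was at most 50% of that in mouse 49, against 4.70% of all tested genes and 0 of 25 left-out targets, and none of the 37 was on the list of p53 targets. By contrast, 21 of the 23 graded falling genes on that list were among the 107 whose homozygous mice were within 1.5-fold.

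**Figure D3:**
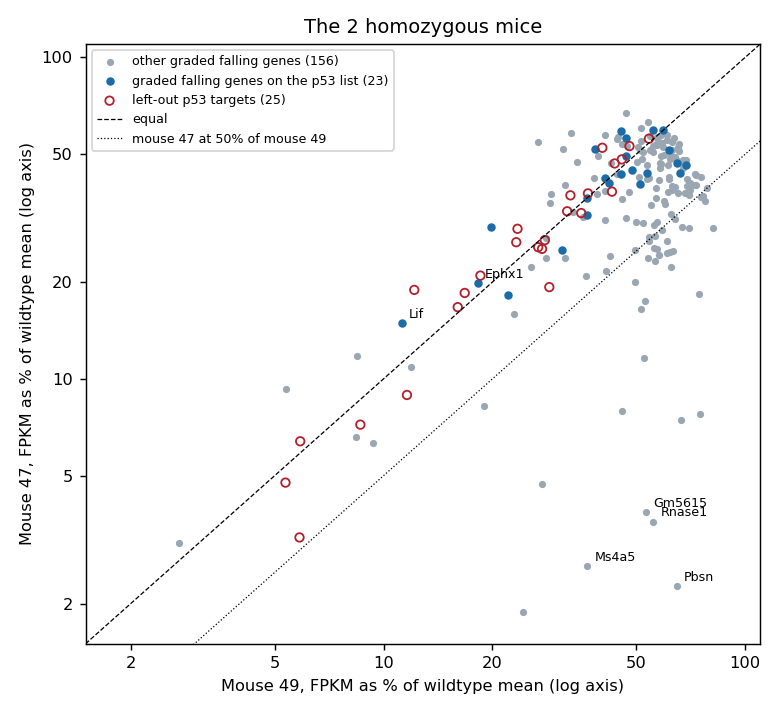
Level of each graded falling gene in the homozygous mice 49 (x axis) and 47 (y axis), as a percentage of the wildtype mean, both on log axes, with the 23 genes of the p53 list in blue, other genes in grey and the 25 left-out p53 targets as red circles (4 genes at or near 0 in a mouse lie off the axes). Red circles and most blue points lie along the dashed line of equality, while Pbsn, Rnase1, Gm5615 and Ms4a5 lie far below it.

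Some of the widest gaps between the homozygous mice were in the most abundant of the 183 genes. Pbsn encodes probasin, an androgen-driven protein secreted by the prostate, and lies on chromosome X from 77837901 to 77853623 (minus strand). Its FPKM was 11192 and 11512 in the wildtype, 8360 and 8174 in the heterozygous and 257 and 7329 in the homozygous mice. Mouse 49 thus stood at 64.6% of the wildtype mean, near the heterozygous mice, and mouse 47 at 2.26%. Rnase1, a secreted ribonuclease, had 579 and 823, 543 and 416, and 25.2 and 390 FPKM. Ms4a5, a membrane protein of the MS4A family, had 244 and 468, 133 and 143, and 9.30 and 130, and Gm5615 had 447 and 577, 371 and 366, and 19.7 and 272. In all 4 genes mouse 49 lay nearer to the heterozygous mice than to mouse 47, and mouse 47 was more than 10-fold below mouse 49. In whole-gland RNA, fewer cells of a type and less RNA per cell cannot be told apart.

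Over the 37 genes, the median level was 23.3% of the wildtype mean in mouse 47 and 56.8% in mouse 49. The luminal markers as a list did not split these mice in this way, with a median log2 difference of mouse 47 from mouse 49 of -0.10 and sums of 46717 and 41904. Single markers varied, since Tgm4 had 131 FPKM in mouse 47 and 3179 in mouse 49 and Krt8 179 and 134. The 183 genes together made up 3.94% and 3.72% of all FPKM in the wildtype, 2.61% and 2.71% in the heterozygous, and 0.617% (mouse 47) and 2.55% (mouse 49) in the homozygous mice, and Pbsn held more of it than any other gene in 5 of the 6 mice.

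**Figure D4:**
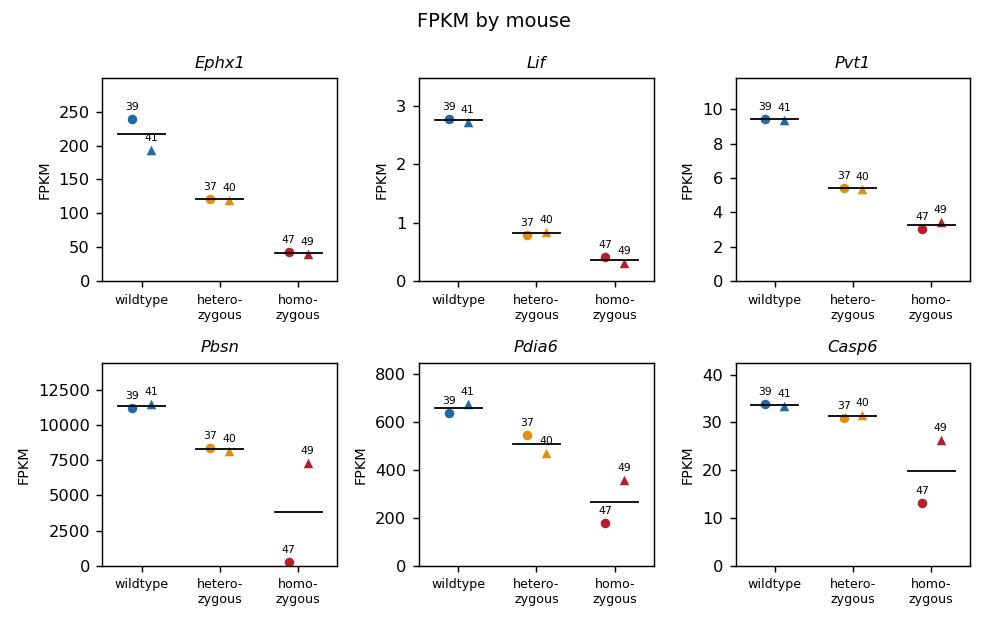
FPKM (y axis, linear from 0) of 6 graded falling genes in each mouse, labelled by its number, with the genotype on the x axis and a line at the mean of the 2 mice. Ephx1, Lif and Pvt1 have homozygous mice that lie together, while Pbsn (257 and 7329), Pdia6 (176 and 355) and Casp6 (13.2 and 26.4) have a low mouse 47 and a mouse 49 nearer the heterozygous mice.

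How much of the fall was present with 1 mutant allele varied from gene to gene. On the log2 scale, the heterozygous change as a share of the homozygous change had a median of 41.3% over the 183 genes, quartiles of 31.5% and 55.3%, and a range from 11.2% to 87.3%. The left-out targets had a median of 52.97%. Among the 107 genes with homozygous mice within 1.5-fold of each other the median was 48.8%, as it was for the 23 genes of the p53 list. It was 27.0% among the 37 genes with a low mouse 47, where that mouse enlarges the homozygous fall. With mouse 47 left out, the median over the 183 genes was 54.9%, and with mouse 49 left out it was 36.5%.

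**Figure D5:**
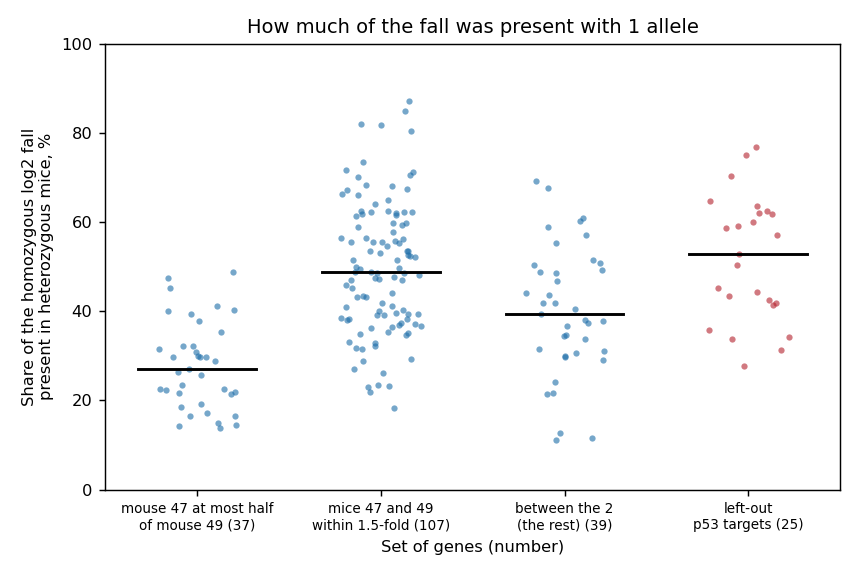
Share of the homozygous log2 fall that was present in heterozygous mice (y axis, %) for each graded falling gene, in 3 sets by how alike the homozygous mice were, and for the 25 left-out p53 targets. Points are genes and bars are medians, which lie at 27.0% where mouse 47 was at most 50% of mouse 49, 48.8% where the mice were within 1.5-fold, 39.4% for the rest and 52.97% for the left-out targets.

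The ends of that range differed in kind. Besides 1700007K13Rik, the highest shares belonged to Hist1h1d (84.9%), a linker histone, and Btg1 (82.0%), an antiproliferative relative of Tob1. Btg1 had 99.6 and 79.3 FPKM in the wildtype, 57.2 and 52.7 in the heterozygous and 47.9 and 51.0 in the homozygous mice. Hist1h1d had 6.22 and 2.26, 1.43 and 1.86, and 1.40 and 1.41, so its share rests on wildtype mice that differed by more than 2-fold. The lowest shares were those of the predicted genes Gm12328 (11.2%) and Gm26641 (11.6%) and of Casp6 (12.7%).

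Of 35 measured apoptosis genes outside the left-out names, 2 were graded falling genes (5.71%, against 1.32% of all tested genes). Casp6, an executioner caspase, which cuts cell proteins during apoptosis, had 33.9 and 33.5 FPKM in the wildtype, 30.9 and 31.6 in the heterozygous and 13.2 and 26.4 in the homozygous mice. The heterozygous mean was 92.8% of wildtype, and the gap between the homozygous mice was wider than that step. The other 33 genes of that list had median log2 changes of -0.05 and -0.14. In limma, 0 of the 35 were called between homozygous and wildtype mice. Over all tested genes 0.261% were called lower and 0.123% higher, so nothing is read from that 0.

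The 5 genes with the least spread within genotypes relative to the range between them were Lif, Pvt1, Sat1, Rrm1 and Trim11. Sat1, which acetylates spermidine and spermine and so governs polyamine breakdown, had 221 and 225 FPKM in the wildtype, 151 and 158 in the heterozygous and 115 and 114 in the homozygous mice. Rrm1, the large subunit of ribonucleotide reductase that makes deoxynucleotides, had 11.0 and 10.6, 6.09 and 6.16, and 5.10 and 4.62. Trim11, a ubiquitin ligase, had 27.8 and 26.0, 20.1 and 19.5, and 15.05 and 15.3. In these 3 genes every gap between genotypes was wider than the gaps within them.

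The 2 deepest falls on the log2 scale were those of the predicted genes Gm43549 and Gm37795. Gm43549, a lincRNA gene on chromosome 3, had 21.4 and 26.1 FPKM in the wildtype, 3.43 and 11.98 in the heterozygous and 0.276 and 0.170 in the homozygous mice, which is a 107-fold fall. Gm37795, on chromosome 4, had 16.4 and 10.3, 5.37 and 6.63, and 0.413 and 0.362, a 34.5-fold fall, and 0.691% of its exon bases are shared on the same strand with Mir34a, a microRNA gene that p53 induces. Gm5547, a predicted lincRNA gene on chromosome 3, had 49.7 and 55.8, 18.5 and 17.8, and 0.996 and 12.8, so its homozygous mice were far apart. These 3 genes had values of at least 10 FPKM in both wildtype mice.

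Other deep falls were in genes with low values. Ddias, which protects cells from apoptosis after DNA damage, had 4.24 and 2.44 FPKM in the wildtype, 1.12 and 1.53 in the heterozygous and 0.311 and 0.180 in the homozygous mice. Peli3, a ubiquitin ligase of innate immune signalling, had 11.5 and 7.38, 5.79 and 5.15, and 2.10 and 2.41. S100a8, a calcium-binding protein of neutrophils, had 4.23 and 1.34, 1.08 and 0.886, and 0.131 and 0.762. Tgfb1i1, read here under ENSMUSG00000108631, a further identifier of that symbol that was not matched to GENCODE M21, had 1.82 and 2.42, 1.46 and 0.391, and at most 0.00320 in the homozygous mice. The wildtype mice differed by more than 1.5-fold in Ddias, Peli3 and S100a8.

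Immunoglobulin segments were 4 of the 183 genes (2.19%, against 0.832% of all tested genes), namely Igkv17-121, Igkv6-13, Ighv9-4 and Iglc2. Igkv17-121 had 1.79 and 2.80 FPKM in the wildtype, 1.17 and 0.720 in the heterozygous mice, and was listed at 0 in both homozygous mice. Iglc2 had 10.5 and 19.7, 9.86 and 10.3, and 1.20 and 6.89. Of 23 markers of T, B and plasma cells 6 were measured at a mean FPKM of at least 1, and these 6 summed to 361 and 564 in the wildtype, 686 and 738 in the heterozygous and 108 and 404 in the homozygous mice. The heterozygous mice were thus the highest for these markers and mouse 47 the lowest, and the part of such cells in the falls was not tested.

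The largest family by name was that of the solute carriers, with 7 genes. Slc2a9, a urate transporter, had 2.25 and 2.70 FPKM in the wildtype, 1.26 and 1.02 in the heterozygous and 0.677 and 0.696 in the homozygous mice. Slc33a1, which carries acetyl-coenzyme A into the endoplasmic reticulum, had 56.8 and 52.8, 39.1 and 38.3, and 26.3 and 37.5. Slc38a10 had 123 and 156, 121 and 89.1, and 35.5 and 77.8. The homozygous means of Slc16a10, Slc18a1, Slc19a2 and Slc35d3 were 56.2%, 34.8%, 36.5% and 49.7% of wildtype, and in Slc16a10, Slc18a1 and Slc38a10 mouse 47 was at most 50% of mouse 49.

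The other lists held few graded falling genes or none. No gene measured on the lists for DNA repair (45), replication and mitosis (25), sterol synthesis (21), immediate early factors (22), interferon response (29), the circadian clock (19), cytosolic ribosomal proteins (35), the respiratory chain (30) or collagens and matrix (27) was among them. The autophagy and lysosome list (32) held Fuca1, the antioxidant list (24) held Ephx1 and the luminal list held Pbsn. Of the 35 ribosomal protein genes, both homozygous mice lay below both wildtype mice in 31 (28.7% of all tested genes did so), with a median log2 change of -0.36. Their median change in heterozygous mice was -0.05, against -0.01 over all tested genes. The lists of basal epithelium, seminal vesicle, urothelium, smooth muscle, skeletal muscle, fat, endothelium, fibroblasts, macrophages, lymphocytes, nerve and blood cells held none. At the share over all tested genes (1.32%) lists of these sizes hold few members, so nothing is read from a count of 0.

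By annotation, 150 of the 183 genes were protein coding (82.0%, against 91.7% of all tested genes), 8 were lincRNA genes (4.37%, against 1.35%), 5 antisense genes (2.73%, against 1.44%) and 6 processed pseudogenes (3.28%, against 1.17%). Exon bases were shared with another gene on the same strand in 11, among them Akap2 with 84.4% of its bases, and with a gene on the opposite strand in 44. Cpm, 1523 bases from Mdm2 on chromosome 10, was the only one within 10 kb of a left-out target. Its FPKM was 35.0 and 35.9 in the wildtype, 22.9 and 23.8 in the heterozygous and 8.85 and 22.4 in the homozygous mice.

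Each mouse was also left out in turn and the same conditions applied to the other 5, which 426 genes met without mouse 39, 295 without mouse 41, 327 without mouse 37, 230 without mouse 40, 161 without mouse 47 and 363 without mouse 49. A wildtype mouse fitted the order when it lay above both heterozygous mice, and a homozygous mouse when it lay below both. A heterozygous mouse had to lie below both wildtype and above both homozygous mice, so shares are not compared between genotypes. Mouse 39 fitted the order in 40.4% of its 426 genes, against 35.2% of all tested genes. These shares were 61.4% and 38.3% for mouse 41, 55.7% and 7.70% for mouse 37, and 79.6% and 13.2% for mouse 40. They were 80.1% and 41.6% for mouse 47, and 64.5% and 41.1% for mouse 49. Of the 183 genes, 180 (98.4%) would have met the ratio of 0.6 on mouse 47 alone and 123 (67.2%) on mouse 49 alone. Over all tested genes these shares were 9.09% and 4.41%. The rule limited the mean of mice 47 and 49 to 0.6 of wildtype, so these counts follow in part from the choice. In 49 genes, mouse 49 was within 10% of the lower heterozygous mouse.

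In the limma fit across all tested genes, 16 of the 183 were called lower in homozygous than in wildtype mice at an adjusted p under 0.05 (0.261% of all tested genes), and 174 at an unadjusted p under 0.05 (9.32%). In heterozygous mice these numbers were 0 (0%) and 62 (2.21%), and in the F-test over the 3 genotypes 3 (0.101%) and 150 (11.5%). The rule used the same contrasts, so nothing is read from these counts. Each genotype had 2 mice, and an exact permutation of 2 against 2 mice cannot give a two-sided p below 0.333, so no exact test of a single gene was made.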

How the data were processed

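Total RNA from snap-frozen prostates of 6 mice, 2 per genotype, was made into stranded mRNA libraries and sequenced as read pairs by the authors. Per the submitters' processing notes, reads were handled with bcl2fastq, HISAT, Cufflinks and Cuffnorm on GRCm38/mm10. Versions, the annotation and any scaling between mice are not given in the sources used here. The authors deposited 1 table of FPKM per mouse, in which exon length and library size have been allowed for. No counts were used, so no count test was run.

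Genotypes were taken from the labels. The 183 genes and every gene list were chosen with earlier results of these data known. Named genes were the 12 lowest homozygous to wildtype ratios among genes without a predicted, RIKEN or clone name, the 8 highest wildtype levels, members of a list, the 3 nearest either side of the ratio limit, the 3 highest and lowest shares, the 5 tightest genes and the largest family by name. Gm43549, Gm37795, Gm5547, Pgpep1, Fhl2, Ahnak2, Iglc2, Cpm, Akap2 and Xlr3a's promoter element, and the comparison genes Hspa5, Creld2, Tgm4 and Krt8, were chosen after their values were seen. Some genes that the rule names are not reported here.

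limma 3.58.1 in R 4.3.3 was run on log2(FPKM + 0.1) for the 13818 genes whose mean FPKM reached 1, with the 3 genotypes as groups, eBayes with an intensity trend (prior df 2.77, residual df 3) and Benjamini-Hochberg adjustment, after a test on simulated data. Positions came from GENCODE M21. Promoters came from the RefSeq GRCm38.p6 table. Python 3.11.15, pandas 2.3.3 and numpy 2.4.6 did the rest. Alternatives covered scaling, filters, pseudocount, ratio limit, prior trend, motif settings and each mouse left out.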

Additional observations from a re-analysis of the deposited data

How the results depend on the processing

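The number of graded falling genes was 105 with a ratio limit of 0.5 and 661 with none. It stayed within 1.5 times of 183 under median scaling (175), quantile normalization (183, with 143 shared), a mean FPKM of at least 5 (131), no filter on the mean (260), and, chosen after seeing the data, the ratio taken on mouse 47 alone (233) or mouse 49 alone (128). With 1 mouse left out it ran from 161 (mouse 47) to 426 (mouse 39), with 295 without mouse 41, 327 without mouse 37 and 363 without mouse 49, where fewer mice had to keep the order. The median log2 change of the 183 lay between -0.42 and -0.51 in heterozygous mice and between -0.83 (without mouse 47) and -1.31 (without mouse 49) in homozygous mice. Scaling moved the median of all genes by under 0.1 on the log2 scale. Over 570 pairs of a named gene and a setting, 484 moved by less than the spread within genotypes, 86 moved by more and 0 changed direction. The choice of genes put every homozygous value below every wildtype value. Leaving out a mouse or changing the pseudocount therefore could not change the direction, and nothing is read from that 0.

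Calls by limma depended on the settings. Between homozygous and wildtype mice 53 genes were called (17 higher, 36 lower), 4 without the filter on low values and 23 without the intensity trend. Quantile normalization gave 22 higher and 29 lower. With 1 mouse left out the number ran from 4 (mouse 37 or mouse 47) to 128 (mouse 49), with 7 without mouse 39, 96 without mouse 41 and 5 without mouse 40. Between homozygous and heterozygous mice it was 2, but 1 with a pseudocount of 0.01 or a mean FPKM of at least 5, and 0 (mouse 37 or 40) to 54 (mouse 49) with 1 mouse left out, with 4 without mouse 41 and 5 without mouse 47. The F-test called 14, but 3 without the filter, 6 after quantile normalization and 9 without the trend, and 0 (mouse 37 or 40) to 10 (mouse 41) with 1 mouse left out, with 4, 5 and 6 without mice 39, 47 and 49. Between heterozygous and wildtype mice 0 were called, or 305 lower at an unadjusted p under 0.05, and 0 to 2 with 1 mouse left out. A genotype left with 1 mouse was assumed to vary like the others, and the cause of these changes was not tested. The p53 element, found in 3.65% of the members' promoters and 1.75% of those of all tested genes, was found in 12.4% (7.30% of all tested genes) with at most 3 mismatches, in 2.19% (0.191%) with at most 1 mismatch and in 0.730% (0.430%) with no spacer.

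No paired analysis was possible because the animal numbers are not shared between genotypes. With 2 mice per genotype and an unknown number of fragments, the error of a single low value cannot be given.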
